A study of Mus musculus with 6 samples.

Results

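The genes described here are 42 genes of mitosis, from entry into M phase to the cut between the daughter cells, measured in primary chondrocytes of mouse articular cartilage. They were taken by symbol from a list of regulators, checkpoint, kinetochore, motor and cytokinesis genes. That list and those set beside it below were chosen with earlier results of these data known. Shares within the lists are therefore a description and not separate evidence. All 42 genes were found among the 55377 genes of the count tables, each under 1 identifier. Chondrocytes are the cells that make and maintain cartilage matrix. The cells were transfected with a control siRNA (3 libraries) or with an siRNA against Irf1, which encodes interferon regulatory factor 1 (3 libraries), and polyadenylated RNA was sequenced 36 h later. All groups were primary cultures, labelled control or Irf1-knockdown by genotype, and no treatment other than the siRNA is named. Whether the replicates were separate cultures or separate mice is not stated, so each p-value reflects only how far these libraries scatter, which may be technical. The sources used here do not give the age, sex or strain of the mice or the siRNA sequences.

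A dividing cell builds most of the mitotic machinery anew in each cycle. The genes for it are little expressed in quiescent cells and in early G1, switched on together in G2 and M phase, and many of their products are destroyed as the cell leaves mitosis. Their mRNA level in a culture is therefore widely used as a readout of proliferation, and articular chondrocytes, which seldom divide in adult cartilage, re-enter the cycle when grown in culture. In bulk RNA, fewer cells in mitosis and less of each transcript per cell cannot be told apart.

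Library totals ran from 28565096 to 29282494 counts with control siRNA and from 22349142 to 26752065 with Irf1 siRNA, so each Irf1 siRNA library was the shallower. Irf1 itself stood at 11.1, 12.6 and 12.2 CPM (read counts relative to library size, scaled between libraries with TMM factors) in the control libraries and at 5.64, 5.08 and 6.02 CPM in the Irf1 siRNA libraries, all on the side their label gives (log2 fold change −1.10, adjusted p = 3.0e-06). The 12 chondrocyte markers summed to between 93886 and 123207 CPM with control siRNA and between 93256 and 122844 CPM with Irf1 siRNA. Of these, Hapln1, a link protein of the matrix, was the 1 that passed the threshold, with a log2 fold change of −1.04. Erythroid and neutrophil markers summed to at most 0.214 CPM in any library and endothelial markers to at most 2.48 CPM, and skeletal muscle markers to 13.9 to 14.7 CPM with control siRNA and 12.6 to 14.9 CPM with Irf1 siRNA, where 0 of 8, 2 of 6 and 3 of 6 markers had enough counts to be tested and 0 of those tested were called. The 8 macrophage markers summed to 16.2 to 20.5 CPM against 21.1 to 21.7 CPM, with Adgre1 and Itgam at 0 in all 6 libraries. Cd68 and Cd14 were called higher. Lyz2 went the other way, with a log2 fold change of −0.69 and no overlap between the groups (adjusted p = 0.057). Mrc1 came to −0.07 with overlap, and Csf1r and Ptprc had too few counts to be tested.

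With Irf1 siRNA, 33 of the 42 mitosis genes (78.6%) were lower and 0 were higher at an adjusted p under 0.05 (edgeR quasi-likelihood test, adjusted over all 14683 tested genes). DESeq2 likewise called 0 higher, and 0 were higher at an unadjusted p under 0.05. Over all tested genes 12.0% were lower and 10.4% higher. Among the 8387 genes within the members' own range of expression (a mean of 10.2 to 233.8 CPM), 15.1% were lower and 11.9% higher. All 42 members passed the filter on low counts. The log2 fold change was below 0 in 41 of the 42, against 49.8% of all tested genes and 50.2% of those in the same range of expression. The median log2 fold change of the members was −0.26, a 1.20-fold difference, beside 0.00 for all tested genes, and the members ran from −1.0 for Bub3 to 0.00 for Ccnf. Without Bub3 the largest fall was 0.47 on the log2 scale. In 35 of the 42 genes each Irf1 siRNA library lay below each control library, a pattern found in 19.5% of all tested genes.

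**Figure D1:**
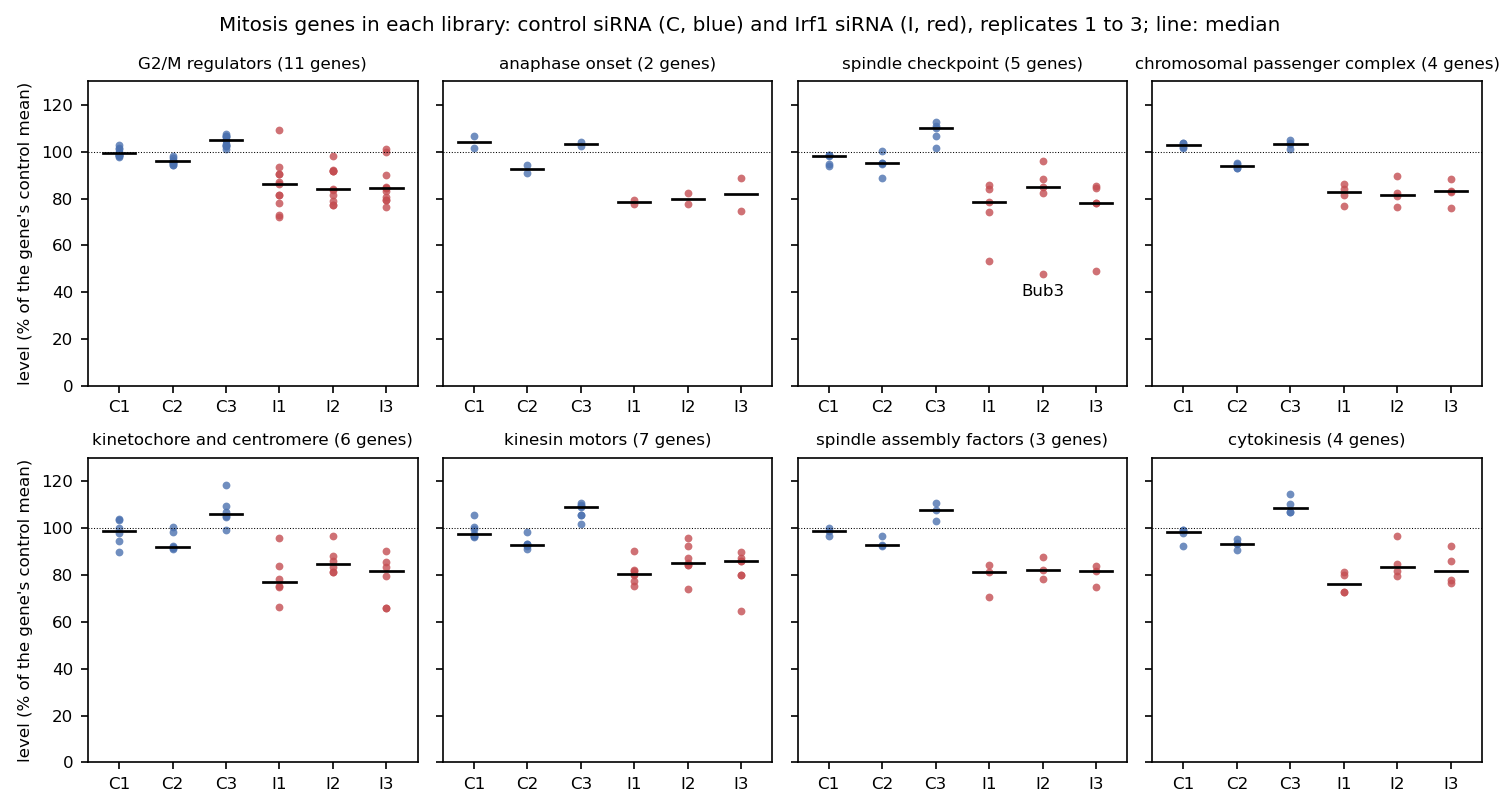
Level of each mitosis gene in each library, as a percentage of that gene's own mean in the 3 control libraries (y axis), for 8 role groups. C1 to C3 are control siRNA libraries and I1 to I3 Irf1 siRNA libraries, each point is 1 gene and the short line is the median of the panel's genes. Over all 42 genes the median lies at 80.8, 84.1 and 83.2% in I1, I2 and I3, and Bub3 lies near 50%.

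The shift was present in each library. As a percentage of its own control mean, the median member stood at 99.1, 94.4 and 106.0% in control replicates 1, 2 and 3, and at 80.8, 84.1 and 83.2% in Irf1 siRNA replicates 1, 2 and 3. Summed over the 42 genes, the level was 2740, 2616 and 2949 CPM in the control libraries and 2190, 2318 and 2252 CPM in the Irf1 siRNA libraries, so that 2253 ± 64.4 CPM stood against 2769 ± 168 CPM (SD, n = 3), or 81.4% of the control level. The control libraries differed among themselves: control replicate 3 was the highest of the 6 libraries for 35 members, and control replicate 2 was the lowest control for 34. Without control replicate 3, 22 of the 42 members remained lower and the median log2 fold change was −0.22, whereas without control replicate 2 these values were 33 and −0.31. The falls lost without control replicate 3 were those of Ccnb1, Espl1, Bub1, Ttk, Birc5, Ndc80, Nuf2, Spc25, Kif11, Kif20b and Hmmr. Thinning all libraries to the depth of the smallest left 32 members lower.

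**Figure D2:**
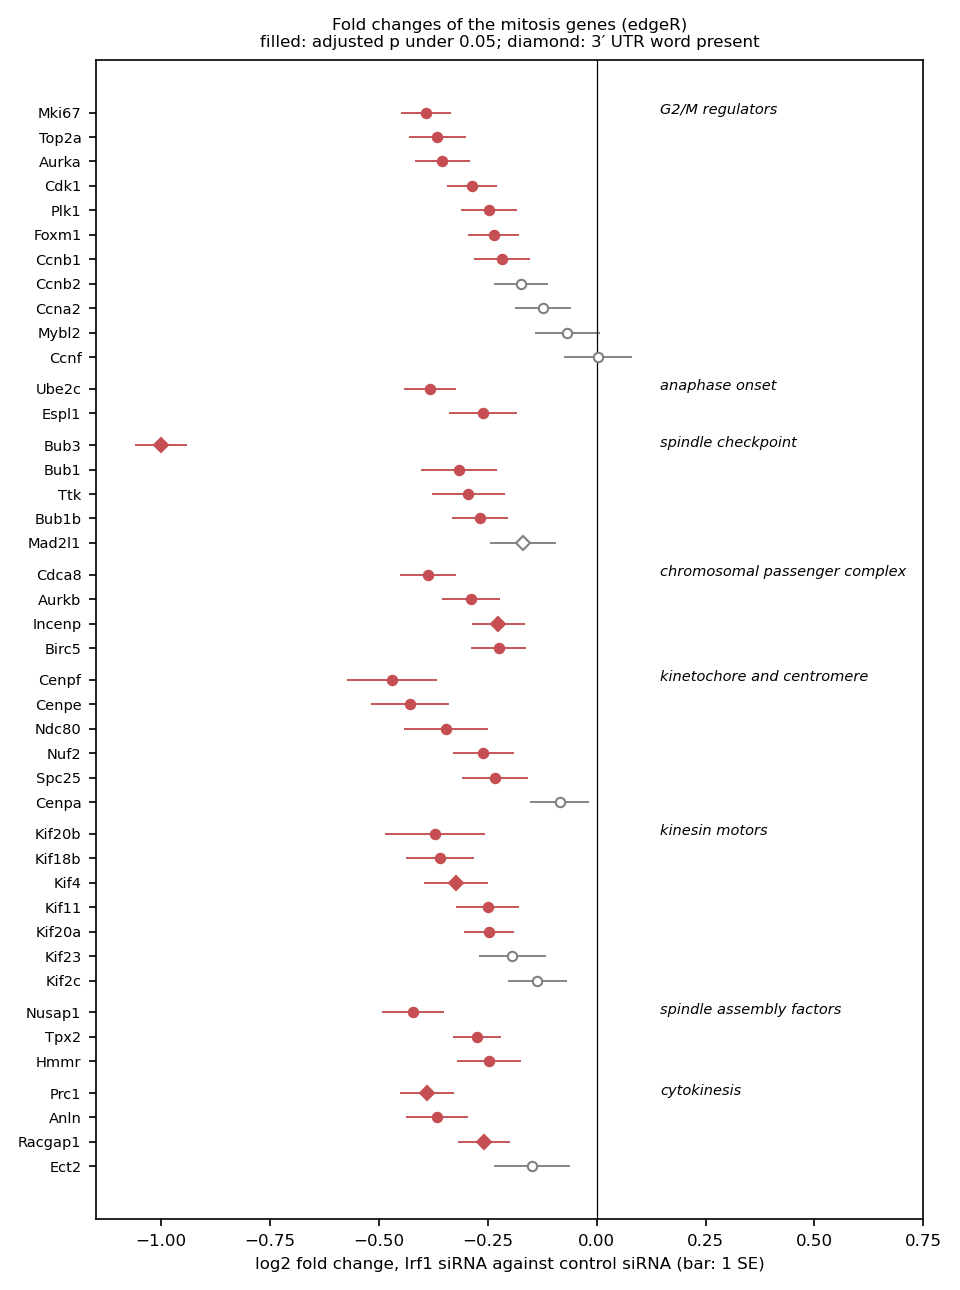
Log2 fold change of each of the 42 genes with Irf1 siRNA against control siRNA (x axis; bar, 1 standard error), grouped by role. Filled red symbols mark the 33 genes with an adjusted p under 0.05, open symbols the 9 others, and diamonds the 6 genes whose 3′ UTR holds one of the short words described for Bub3.

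The summed markers of 2 neighbouring lineages were also lower in each Irf1 siRNA library than in each control library. The 7 fibroblast markers are led by the type I collagen genes. They summed to 6294 to 7762 CPM with control siRNA and to 4548 to 5580 CPM with Irf1 siRNA, where Col1a1 and Col1a2 made up nearly all of the sum and both were lower. Dpt, Pi16 and Dpp4 were below 1 CPM in each library, Pdgfra came to 0.01 in log2 fold change (adjusted p = 0.92), and Thy1 to −0.30 without overlap between the groups (adjusted p = 0.065). The 6 osteoblast markers summed to 83.4 to 109.0 CPM against 54.7 to 80.5 CPM, most of it Ibsp. Ibsp itself had a log2 fold change of −0.70 without overlap between the groups (adjusted p = 0.18). Sp7, the next most abundant, had means of 23.8 against 23.6 CPM and overlapped (log2 fold change −0.01, adjusted p = 0.94). Of the 6 markers, 0 passed the threshold with edgeR or DESeq2. An unadjusted p under 0.05 was found for 2, both at low counts. Bglap (4 to 12 counts per library) had a log2 fold change of 1.13 and Phex (12 to 30 counts) −0.64. The part of the cell mixture in the values of the mitosis genes was not tested.

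Promoters of mitosis genes are known for a shared layout. CCAAT boxes, bound by the factor NF-Y, lie upstream of a cell cycle genes homology region (CHR), the element at which the MuvB complex recruits repressors in resting cells and the activators B-MYB and FOXM1 in dividing ones. The promoters of the 6 called members with the smallest adjusted p are shown so that the presence and order of these motifs can be read in each, whether or not they follow that layout. Each is the RefSeq window from 250 bases before to 50 bases after an annotated start (build GRCm38.p6, 5′ to 3′ on the strand of the gene), with matches to CCAAT (or ATTGG, the same box on the other strand) and to the CHR letters TTTGAA (or TTCAAA on the other strand) or TTCGAA in capitals.
Bub3, chr7:131560120-131560419, plus strand: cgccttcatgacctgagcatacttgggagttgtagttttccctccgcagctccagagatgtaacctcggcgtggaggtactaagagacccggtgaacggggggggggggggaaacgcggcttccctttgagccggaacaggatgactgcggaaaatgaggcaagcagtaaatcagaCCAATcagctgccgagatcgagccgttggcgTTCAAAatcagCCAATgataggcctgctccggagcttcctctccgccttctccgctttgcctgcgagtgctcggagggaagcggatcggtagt
Mki67, chr7:135716330-135716629, minus strand: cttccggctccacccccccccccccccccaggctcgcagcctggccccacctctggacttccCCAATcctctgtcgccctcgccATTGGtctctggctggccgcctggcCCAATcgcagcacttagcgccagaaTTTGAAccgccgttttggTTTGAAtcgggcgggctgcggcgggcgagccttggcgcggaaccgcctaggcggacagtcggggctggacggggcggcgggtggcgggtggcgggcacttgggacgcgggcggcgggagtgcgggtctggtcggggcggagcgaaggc
Ube2c, chr2:164769679-164769978, plus strand: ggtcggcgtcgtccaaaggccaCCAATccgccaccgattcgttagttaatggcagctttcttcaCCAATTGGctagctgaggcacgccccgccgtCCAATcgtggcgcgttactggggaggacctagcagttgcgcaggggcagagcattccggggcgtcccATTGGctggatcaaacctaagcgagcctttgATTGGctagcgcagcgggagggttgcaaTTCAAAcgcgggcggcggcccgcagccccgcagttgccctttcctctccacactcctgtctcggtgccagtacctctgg
Prc1, chr7:80294201-80294500, plus strand: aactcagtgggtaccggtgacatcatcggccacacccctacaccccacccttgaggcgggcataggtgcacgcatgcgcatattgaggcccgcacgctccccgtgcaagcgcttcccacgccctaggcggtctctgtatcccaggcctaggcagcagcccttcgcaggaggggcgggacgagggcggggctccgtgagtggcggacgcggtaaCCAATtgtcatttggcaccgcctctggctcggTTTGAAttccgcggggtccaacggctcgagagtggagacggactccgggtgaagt
Cdca8, chr4:124936868-124937167, minus strand: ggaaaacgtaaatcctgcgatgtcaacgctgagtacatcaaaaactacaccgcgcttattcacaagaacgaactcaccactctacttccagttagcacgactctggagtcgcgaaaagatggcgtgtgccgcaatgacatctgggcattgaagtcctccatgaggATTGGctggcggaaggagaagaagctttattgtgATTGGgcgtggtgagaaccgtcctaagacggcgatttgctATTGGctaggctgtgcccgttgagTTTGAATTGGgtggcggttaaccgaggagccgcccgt
Nusap1, chr2:119618048-119618347, plus strand: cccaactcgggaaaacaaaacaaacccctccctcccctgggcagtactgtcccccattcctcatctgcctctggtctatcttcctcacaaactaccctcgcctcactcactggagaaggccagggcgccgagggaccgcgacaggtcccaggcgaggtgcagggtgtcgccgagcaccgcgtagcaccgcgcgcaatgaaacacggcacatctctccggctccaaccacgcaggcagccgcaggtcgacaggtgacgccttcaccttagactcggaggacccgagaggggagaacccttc

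In Bub3 the CHR match, 43 bases before the start, lies between CCAAT matches at 74 and 32 bases before it. In Prc1 the CCAAT match begins 37 bases before the start and the CHR match 5 bases before it. Ube2c holds 6 CCAAT matches, 2 of which overlap, ahead of a CHR match 29 bases before its start, and Cdca8 holds 4 CCAAT matches around a CHR match that begins 14 bases after its start and shares bases with the last of them. Nusap1 has neither set of letters in its window. For Bub3 and Prc1 the table lists a second, overlapping window, and the first is shown.

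RefSeq windows were matched by symbol for 36 of the 42 members (39 windows, some of which overlap), all but Aurkb, Ccna2, Foxm1, Incenp, Kif20a and Tpx2. A CHR match was present in 32 of the 39 (82.1%), against 19.2% of all 32851 windows of the same length, and 29 (74.4%) had one that began within 50 bases of the start, against 5.31% of all windows. At least 1 CCAAT match was present in 76.9% against 37.4%, at least 2 in 53.8% against 11.7%, and both motifs in 71.8% against 7.52%. Where both were present, the last CHR match lay 3′ of each CCAAT match in 25 of 28 member windows (89.3%) and in 43.0% of all such windows. The shortest distance in a window from a CCAAT match to a CHR match after it had a median of 31 bases in the members. In all windows where one follows the other the median was 58 bases. This shortest distance tends to be smaller where a window holds more matches, and the members more often held at least 2 CCAAT matches. By call, 83.3% of the windows of the 28 matched lower genes and 77.8% of the windows of the 8 other matched genes had a CHR match, a difference that was not tested. Ccnf, the member with a log2 fold change of 0.00, had 2 matches to each motif. A match is a run of letters and not a measured binding site.

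**Figure D3:**
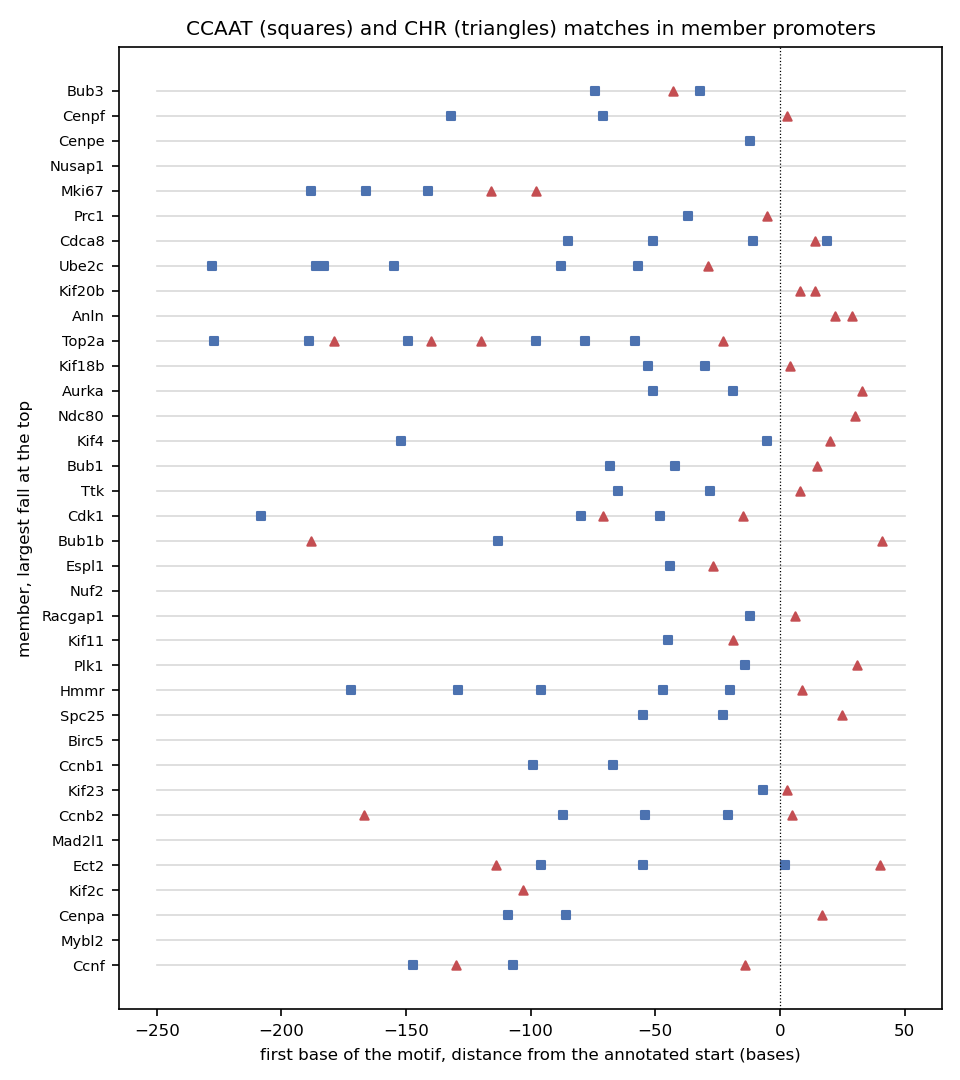
Position of CCAAT matches (blue squares) and CHR matches (red triangles) in the promoter windows of 36 mitosis genes, as the distance in bases of the first base of the match from the annotated start (x axis), with the gene of largest fall at the top. In most genes a CHR match lies within 50 bases of the start and downstream of the CCAAT matches, also in genes low in the plot, such as Ccnf.

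Of 11 regulators of G2 and M phase, 7 were lower and 4 were not past the threshold (falls and rises of single genes are in log2 units from here on). Mki67, which encodes the proliferation antigen Ki-67 that coats mitotic chromosomes, gave 72.6, 71.6 and 74.7 CPM in the control libraries and 53.2, 57.7 and 55.9 CPM in the Irf1 siRNA libraries. Top2a, the topoisomerase that untangles sister DNA, was the most abundant member by CPM and stood at 259, 249 and 283 CPM against 189.6, 215 and 209 CPM. Both genes left a clear gap between the groups, and they fell by 0.39 (SE 0.06, adjusted p = 1.5e-04) and 0.37 log2 units (SE 0.06, adjusted p = 8.0e-04). Aurka, the kinase of the spindle poles, stood at 50.8, 48.9 and 54.7 CPM against 40.2, 39.7 and 40.9 CPM, with the Irf1 siRNA libraries the closer together. It fell by 0.35 (SE 0.06, adjusted p = 8.0e-04).

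Cdk1, the kinase that drives entry into mitosis, gave 116, 111 and 122 CPM with control siRNA and 94.9, 97.3 and 93.7 CPM with Irf1 siRNA, a fall of 0.29 log2 units (SE 0.06, adjusted p = 0.0020). The cyclin genes among the members gave smaller log2 fold changes. Ccnb1, which encodes cyclin B1, had 70.6, 69.2 and 77.2 CPM against 59.0, 66.2 and 61.1 CPM and fell by 0.22 (SE 0.06, adjusted p = 0.0229), a call that did not hold without control replicate 3 or without Irf1 siRNA replicate 1 or 3 (adjusted p of 0.077 to 0.095). The Ccnb1 groups lay close together but did not overlap. Ccnb2 came to −0.17 in log2 fold change (adjusted p = 0.057) with no overlap between the groups, Ccna2, the cyclin A gene, −0.12 (adjusted p = 0.19) with overlap, and Ccnf 0.00 (SE 0.08, adjusted p = 0.99). Whether the cyclins differed from Cdk1 was not tested.

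Of the transcription factors of this program, Foxm1 passed the threshold and Mybl2 did not, and whether they differed was not tested. Foxm1, the forkhead factor that switches on late cell cycle genes, fell from a mean of 53.6 ± 1.90 CPM with control siRNA to 45.5 ± 0.618 CPM (SD, n = 3; log2 fold change −0.24, adjusted p = 0.0088). Mybl2, which encodes B-MYB, gave 22.2, 20.7 and 21.8 CPM against 20.2, 19.8 and 21.9 CPM, so the groups overlapped (log2 fold change −0.07, SE 0.08, adjusted p = 0.57). Plk1, the polo-like kinase needed from mitotic entry to cytokinesis, fell by 0.25 log2 units (adjusted p = 0.0114).

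Both genes of anaphase onset were lower. Ube2c, the ubiquitin-conjugating enzyme of the anaphase-promoting complex, stood at 71.4, 66.3 and 73.1 CPM with control siRNA and at 54.4, 54.6 and 52.6 CPM with Irf1 siRNA. Its groups were well apart, and it fell by 0.38 log2 units (SE 0.06, adjusted p = 2.5e-04). Espl1, which encodes separase, the protease that cuts cohesin, had 35.0, 29.8 and 33.6 CPM against 26.0, 26.9 and 29.1 CPM and fell by 0.26 (SE 0.08, adjusted p = 0.0236). The Espl1 call did not hold without control replicate 1 or 3, without Irf1 siRNA replicate 1 and with counts thinned to 1 depth (adjusted p of 0.059 to 0.106).

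The spindle assembly checkpoint holds anaphase back until each chromosome is attached, and 4 of its 5 genes were lower. Bub3, which docks the checkpoint kinases onto kinetochores, was at 91.7, 93.9 and 95.2 CPM in the control libraries and at 50.1, 44.6 and 45.8 CPM in the Irf1 siRNA libraries. No other member fell as far: Bub3 was left at 50% of its control level (log2 fold change −1.0, SE 0.06, adjusted p = 2.0e-08), ranked 20 by p among all tested genes, and its call held in all 13 alternatives. The next largest fall, that of Cenpf, left 71.9%. Bub1b, which encodes BubR1, stood at 66.7, 64.1 and 72.4 CPM against 53.1, 57.6 and 57.9 CPM and fell by 0.27 (SE 0.06, adjusted p = 0.0067). Bub1, the kinase that binds Bub3 at the kinetochore, had 42.1, 38.0 and 48.2 CPM against 31.8, 37.8 and 33.4 CPM, so that the groups nearly touched, and fell by 0.32 (SE 0.09, adjusted p = 0.0177). Its call did not hold without control replicate 3 or without Irf1 siRNA replicate 1 or 3 (0.062 to 0.075). The checkpoint kinase gene Ttk fell by 0.29 (adjusted p = 0.0185, and 0.081 to 0.093 without control replicate 3 or Irf1 siRNA replicate 3), and Mad2l1, the gene of the checkpoint inhibitor MAD2, gave −0.17 with overlapping groups (adjusted p = 0.12).

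Bub3 also differed from most members in its 3′ UTR. Earlier work on these same counts had picked 4 words of 7 bases with the fold changes in view, so their presence is a description and not separate evidence. They are ACTGATC, the word CTGATCA shifted along it, GCTATCT, and likewise CTATCTA. In GENCODE M21 transcripts (GRCm38, matched by gene identifier), 6 of the 42 members held a word: Bub3, Mad2l1, Incenp, Kif4, Prc1 and Racgap1. Bub3 held GCTATCTA, which joins 2 of the words, at 2 places, beginning 2112 and 2391 bases after the stop codon in a 3′ UTR of 2439 bases. The matches in Bub3 are shown beside the shorter ones in Incenp and Kif4, with the letters of the words in capitals.
Bub3, base 2112: gaaattaatgtGCTATCTAcgtgtatcctt
Bub3, base 2391: tgtttgtgtttGCTATCTAaaactgttata
Incenp, base 142: tggggactagaCTATCTAgcctgaagagtc
Kif4, base 162: gttggcctttaCTATCTAagccttcaaaca

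Members with and without a word were lower in similar shares, a comparison that was not tested. Of the 36 members with none, 28 were lower (77.8%), with a median log2 fold change of −0.26, and of the 6 with a word 5 were lower, with a median of −0.29. Among all tested genes with an annotated 3′ UTR, 25.9% of those with a word and 9.62% of those without were lower. The words had been picked with these fold changes in view, so this contrast is not separate evidence. Mki67, Top2a, Cdk1 and Ube2c were among the lower genes with no word in the 3′ UTR.

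All 4 genes of the chromosomal passenger complex, which corrects faulty attachments and then marks the cleavage plane, were lower. Cdca8, which encodes borealin, stood at 50.3, 46.0 and 51.9 CPM against 38.0, 37.8 and 37.6 CPM and fell by 0.39 log2 units (SE 0.06, adjusted p = 4.6e-04). Aurkb, the kinase of the complex, gave 36.7, 33.8 and 35.8 CPM against 28.8, 28.7 and 29.4 CPM and fell by 0.29 (SE 0.07, adjusted p = 0.0052). In both genes the 3 Irf1 siRNA libraries were closer to each other than the control libraries were. Incenp, the scaffold subunit, had 62.0, 57.6 and 63.1 CPM against 52.4, 50.1 and 53.8 CPM and fell by 0.23 (SE 0.06, adjusted p = 0.0139, and 0.053 without control replicate 1). Birc5, the survivin gene, fell by 0.23 (adjusted p = 0.0182), a call that did not hold without control replicates 1 or 3 or Irf1 siRNA replicate 3 (0.056 to 0.083).

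Of 6 kinetochore and centromere genes, 5 were lower. Cenpf, a large coiled-coil protein of the outer kinetochore, gave 17.9, 15.7 and 18.1 CPM against 11.4, 14.4 and 11.4 CPM. Cenpe, the kinetochore motor that pulls chromosomes to the spindle equator, gave 17.8, 17.9 and 17.7 CPM against 13.4, 14.5 and 11.7 CPM. After Bub3 these were the largest falls of the list, 0.47 (SE 0.10, adjusted p = 0.0039) and 0.43 log2 units (SE 0.09, adjusted p = 0.0027), in genes of low CPM. The microtubule-binding NDC80 complex was represented by 3 genes. Nuf2 had 43.4, 45.1 and 49.1 CPM against 35.9, 40.5 and 38.4 CPM and fell by 0.26 (SE 0.07, adjusted p = 0.0135, and 0.051 to 0.060 without control replicate 3 or Irf1 siRNA replicate 1). Ndc80 fell by 0.35 (adjusted p = 0.0186) and Spc25 by 0.23 (adjusted p = 0.0368). The Ndc80 call did not hold without control replicate 3 or Irf1 siRNA replicate 1 or 3, and that of Spc25 with DESeq2, with upper-quartile scaling and on leaving out any 1 library except control replicate 2 (0.057 to 0.171 over both genes). Cenpa, the histone variant that marks the centromere itself, gave 47.4, 41.8 and 48.0 CPM against 43.7, 44.3 and 41.3 CPM, which overlap (log2 fold change −0.09, SE 0.07, adjusted p = 0.41).

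Among 7 kinesin motors, 5 were lower. Kif18b, a motor that trims the ends of astral microtubules, stood at 27.1, 23.8 and 26.2 CPM against 20.5, 19.0 and 20.6 CPM and fell by 0.36 (SE 0.08, adjusted p = 0.0035). Kif4, a chromosome-bound motor that also acts in the central spindle, had 42, 40.0 and 47.0 CPM against 32.5, 36.2 and 34.4 CPM and fell by 0.32 (SE 0.07, adjusted p = 0.0053). Kif20a, the motor that carries the passenger complex to the midzone, gave 95.3, 97.3 and 104 CPM against 81.3, 83.5 and 85.2 CPM and fell by 0.25 (SE 0.06, adjusted p = 0.0057). In these 3 motors each Irf1 siRNA library was below each control library, and the calls held in all 13 alternatives. Kif11, the motor that pushes the spindle poles apart, fell by 0.25 (adjusted p = 0.0207) and Kif20b by 0.37 (adjusted p = 0.0293). Both calls failed without control replicate 1 or 3, that of Kif11 also without Irf1 siRNA replicate 1 and that of Kif20b also without Irf1 siRNA replicate 3 (0.051 to 0.147). Kif23, a motor of the central spindle, gave −0.19 with overlap (adjusted p = 0.086), and Kif2c, which takes microtubules apart at centromeres, −0.14 without overlap (adjusted p = 0.17).

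The 3 spindle assembly factors were all lower. Nusap1, which bundles microtubules near chromosomes, was at 43.3, 40.6 and 47.2 CPM with control siRNA and at 30.8, 34.1 and 32.8 CPM with Irf1 siRNA. Tpx2, the activator of Aurora A on the spindle, was at 132, 127 and 136 CPM against 111, 108 and 107 CPM. Hmmr, a microtubule-associated protein first known as a hyaluronan receptor, was at 46.8, 44.8 and 53.6 CPM against 39.3, 42.5 and 40.5 CPM. In each of these 3 genes the groups did not overlap. Nusap1 fell by 0.42 (SE 0.07, adjusted p = 5.7e-04), Tpx2 by 0.28 (SE 0.05, adjusted p = 0.0019) and Hmmr by 0.25 log2 units (SE 0.07, adjusted p = 0.0227), and the Hmmr call did not hold without control replicate 3 or Irf1 siRNA replicate 1 or 3 (0.066 to 0.114).

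Of 4 cytokinesis genes, 3 were lower. Prc1, which crosslinks the microtubules of the central spindle, had 143, 135 and 154 CPM against 105, 115 and 111 CPM and fell by 0.39 (SE 0.06, adjusted p = 3.3e-04). Anln, which encodes the actin-binding anillin of the contractile ring, had 184, 169 and 205 CPM against 135, 152 and 145 CPM and fell by 0.37 (SE 0.07, adjusted p = 0.0016). Racgap1, the GTPase-activating subunit of centralspindlin, had 100.1, 97.4 and 109 CPM against 81.7, 86.8 and 87.8 CPM and fell by 0.26 (SE 0.06, adjusted p = 0.00625). In all 3 genes control replicate 3 was the highest library and the groups did not overlap. Ect2, the exchange factor that activates RhoA at the cell equator, gave 52.6, 53.0 and 65.2 CPM against 46.4, 55.0 and 52.7 CPM (log2 fold change −0.15, SE 0.09, adjusted p = 0.25), where control replicate 3 alone stood above the rest.

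Per length of annotated exons (GENCODE M21), the order of the members by mean level in control cells ran from Ccnb2 at 34.4, Ccna2 at 32.0 and Plk1 at 31.2 CPM per kb down to Cenpe at 2.06, Kif20b at 1.65 and Cenpf at 1.12, with a median of 9.69. The 2 cyclins at the head of this order were among the 9 genes not past the threshold, but Plk1, Top2a and Tpx2, which came next, were lower. The 3 genes at its foot were among those that fell, but Ccnf at 3.33 and Mybl2 at 4.66 CPM per kb were not past the threshold. A link between level and fall was not tested. The lengths count all annotated exons of a gene, so the order is approximate.

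A wider list of 113 other mitosis genes was set beside the members. In it 50 genes (44.2%) were lower and 3 (2.65%) higher, beside 12.0% lower and 10.4% higher among all tested genes. The median log2 fold change of the list was −0.21. Leaving out control replicate 3 gave 33 lower genes, and leaving out Irf1 siRNA replicate 3 gave 31. By role, 14 of 25 spindle and motor genes, 10 of 21 genes of entry and exit control, 9 of 19 cohesin and condensin genes, 14 of 35 kinetochore and centromere genes and 3 of 13 cytokinesis genes were lower. The largest fall named by the rule was that of Cenpn, which reads the CENP-A nucleosome, by 0.91 log2 units (SE 0.10, adjusted p = 1.0e-05). The CENP-A chaperone gene Hjurp fell by 0.48 (adjusted p = 2.8e-05) and Cenpt, another link from centromere to kinetochore, by 0.50 (adjusted p = 1.5e-04). These falls stood beside the overlapping values of Cenpa itself.

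Cks1b, a small adaptor of cyclin-dependent kinases, fell from a mean of 62.8 ± 3.58 CPM with control siRNA to 39.2 ± 0.817 CPM (SD, n = 3; log2 fold change −0.68, adjusted p = 1.5e-06), and Mastl, the Greatwall kinase gene, fell by 0.46 and the kinase gene Melk by 0.43. Ckap5, a microtubule polymerase, fell by 0.51, and the spindle genes Spag5 and Dlgap5 by 0.44 and 0.40. The condensin genes Ncapd2 and Smc4 fell by 0.34 and 0.38 and the cohesin gene Rad21 by 0.38. Cit, the citron kinase gene of the midbody, fell by 0.45, and Iqgap3 by 0.27 (adjusted p = 0.0155), a call that did not hold without control replicate 1 or Irf1 siRNA replicate 2 (0.053 to 0.065). The 3 that rose were Septin9 by 0.20, which lost its call without any single library but Irf1 siRNA replicate 2 (0.064 to 0.119), and Ensa and Zw10, by 0.27 each, which held their calls in all 13 alternatives and were singled out after their values were seen.

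**Figure D4:**
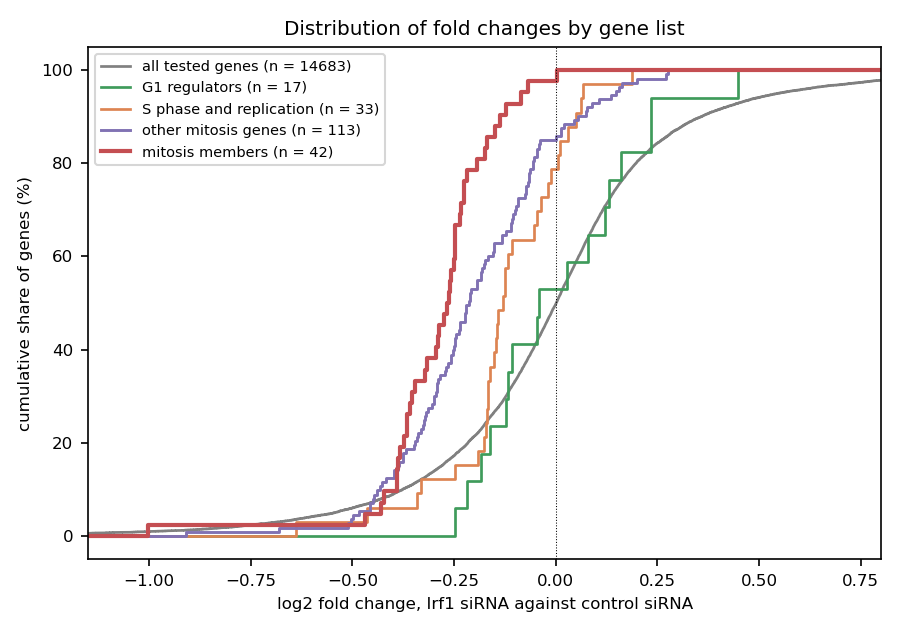
Cumulative share of genes (y axis, percent) at or below each log2 fold change (x axis) for the 42 mitosis genes, 113 other mitosis genes, 33 S phase genes, 17 G1 regulators and all 14683 tested genes. The curve of the mitosis genes lies farthest to the left around its middle, with medians of −0.26, −0.21, −0.13, −0.04 and 0.00 in that order.

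The other phases of the cell cycle were read from 3 more lists. Of 33 genes of S phase and DNA replication, 5 were lower (15.2%, beside 12.0% of all tested genes and 15.1% of those in the members' range of expression) and 0 higher, with a median log2 fold change of −0.13. The log2 fold change was below 0 in 26 of the 33, beside 49.8% of all tested genes. In 11 of the 33 each Irf1 siRNA library lay below each control library, beside 19.5% of all tested genes. Gins2, a subunit of the replicative helicase, fell by 0.64 (adjusted p = 1.2e-04), more than any of the 42 mitosis genes but Bub3. Rrm2, the regulated subunit of ribonucleotide reductase, fell by 0.46 (adjusted p = 9.6e-05), the DNA polymerase gene Pold1 by 0.33, Cdc6 by 0.34 and Rrm1 by 0.17. The Cdc6 call did not hold without control replicate 3 or Irf1 siRNA replicate 3 (0.086 to 0.088), nor that of Rrm1 in 7 of the 13 alternatives (0.051 to 0.140). Without control replicate 3 or Irf1 siRNA replicate 3, 3 were lower. Of 17 G1 regulators, 0 were lower and 3 (17.6%, beside 10.4% of all tested genes) were higher: Ccne1, the cyclin E1 gene, from 24.4 ± 0.370 to 33.3 ± 1.80 CPM (SD, n = 3; adjusted p = 2.5e-04), E2f6 by 0.23 and Ccnd1, the cyclin D1 gene, by 0.23. DESeq2 also called 0 G1 regulators lower and 0 S phase genes higher, and at an unadjusted p under 0.05 these counts were 3 and 1. Without Irf1 siRNA replicate 2, 1 G1 regulator was higher and 2 were lower. The Ccnd1 groups overlapped (adjusted p = 0.0398) and its call did not hold without control replicates 1 or 2 or Irf1 siRNA replicate 2 or 3 (0.093 to 0.198), and that of E2f6 without control replicate 1 or Irf1 siRNA replicate 2 (0.059 to 0.069). The last list held 10 genes of the DREAM and MuvB complexes, which act in part through the CHR, or of their partners. Of these, Mybl1 fell by 0.43 (adjusted p = 0.0065), and 3 rose (beside 10.4% of all tested genes): Rbbp4 by 0.21, Tfdp1 by 0.18 and Tfdp2 by 0.22. These 3 rises did not hold in 1, 5 and 8 of the 13 alternatives, among them leaving out control replicate 2 for each. The count of higher genes here was 1 without control replicate 1 or Irf1 siRNA replicate 2 or 3 and 0 without control replicate 2. In the promoter windows, a CHR match was present in 44.1% of those of other mitosis genes, 17.2% of those of S phase genes and 21.4% of those of G1 regulators. The differences between these lists were not tested.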

How the data were processed

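Raw gene counts, not normalised, are what the authors deposited, as 1 file for each library: 3 with Irf1 siRNA and 3 with control siRNA, made with a stranded kit for polyadenylated RNA, per the labels' protocols. Trimmomatic 0.39, FastQC and STAR and the build GRCm39 are named per the submitters' processing notes. The sources used here do not give the counting tool, its strand setting or the annotation release, so overlapping and antisense genes can share reads. Total counts ran from 22349142 to 29282494. No 2 libraries of a group agreed within counting noise (chi-square per degree of freedom 5.35 to 15.2).

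Counts were fitted in R 4.3.3 with edgeR 4.0.16: filterByExpr (14683 of 55377 genes kept), TMM scaling, robust glmQLFit and two-sided glmQLFTest with the group as the only term, and Benjamini-Hochberg adjustment over all tested genes with a threshold of 0.05. Each adjusted p is from this test unless another is named. The standard error is the absolute log2 fold change over the square root of F. Levels are TMM-scaled CPM. Alternatives were RLE and upper-quartile scaling, DESeq2 1.42.0, no filter, a mean of at least 5 CPM, thinning to equal depth, a replicate block and leaving out each library. Promoters came from RefSeq (GRCm38.p6) and 3′ UTRs and lengths from GENCODE M21 (GRCm38), used by symbol or identifier only.

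The members and lists were chosen with earlier results of these data known. Values per library are given for Mki67, Top2a, Cdk1 and Ccnb1 and for up to 3 called genes of each role group with the smallest adjusted p. Of each other list up to 3 called genes are named. Values of other genes were added after they were seen.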

Additional observations from a re-analysis of the deposited data

How the results depend on the processing

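The count of lower members stayed within 1.5 times of 33 in each alternative: 32 to 35 over other scalings, DESeq2, the other filters, thinning and the replicate block, 28 when the 6 members with a 3′ UTR word were not counted, and 22 to 35 when 1 library was left out. No member was higher in any of them, no member past the threshold changed direction, and the median log2 fold change of the members ran from −0.31 to −0.22. Of the 33 lower members, 21 held their call in all 13 alternatives, 12 lost it in at least 1, and 10 of these 12 lost it only when a library was left out. Ccnb2, Mad2l1 and Kif23 passed in at least 1 alternative. Irf1 was lower in all. With upper-quartile scaling or a mean of at least 5 CPM, 5 other mitosis genes were higher rather than 3. Leaving out 1 library gave 31 to 50 lower genes of that list, 3 to 5 lower S phase genes, 0 to 2 lower and 1 to 3 higher G1 regulators, and 0 to 2 higher genes of the DREAM and MuvB list. With no filter, 1 G1 regulator was lower and 1 gene of the DREAM and MuvB list was higher. The cause of these changes was not tested.

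Replicate numbers are shared by the groups but gave no steady pairing of the libraries. Same-numbered libraries deviated from their group means with correlations of 0.195, −0.045 and 0.052 across genes. Control replicate 2 correlated best with Irf1 siRNA replicate 1 (0.041), and control replicate 3 with Irf1 siRNA replicate 2 (0.192). With the replicate block 34 members were lower, and 3728 of all tested genes were called, beside 3289 in the main fit. The smallest fall called among the members was 0.22 on the log2 scale. With all libraries thinned to the smallest, 32 members were lower, and how far depth limits smaller falls was not tested.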
